A study of Homo sapiens with 6 samples.

Results

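The 44 genes described here are sensors of double-stranded RNA, their adaptors and kinase, the interferon regulatory and STAT factors, the type I interferon receptor and a panel of interferon-stimulated genes. They were taken by gene symbol from the 62700 genes of the expression files. The rule used no values, but the genes were chosen with earlier results of these data known. Levels are in TPM, which is scaled for transcript length and for the library total. Of the 44, 36 had a mean of at least 1 TPM over the 6 libraries, against 14020 of all genes. RNA–Seq was performed on poly(A)-selected RNA of SK–Hep–1 cells, a human liver tumor line that the study calls endothelial-derived. One group was 3 control libraries, shControl replicates 1, 2 and 3, whose genotype label is WT, and the other was 3 libraries, shRAB30-DT replicates 1, 2 and 3, in which the long non-coding RNA *RAB30-DT* was knocked down. By the study's methods the knockdown lines carried a lentiviral short hairpin RNA and were selected with puromycin, and control vectors were packaged into virus as well. Whether the control libraries came from cells with such a vector is uncertain, since their titles name a control hairpin and their genotype label does not. No treatment with interferon is named for either group. Nothing in the labels says that the replicates came from separate cultures, so the p-values measure the spread between these libraries, which may be technical.

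Cells detect double-stranded RNA in the cytosol with RIG-I (*RIGI*) and MDA5 (*IFIH1*), which signal through the adaptor MAVS and the kinase TBK1 to the factor IRF3. IRF3 switches on interferon-β, which acts through its receptor (*IFNAR1*, *IFNAR2*) to form a complex that includes STAT2 and IRF9. That complex binds the interferon-stimulated response element in the promoters of genes such as *ISG15* and the *IFIT* and *OAS* families. Their products bind foreign RNA, lead to its degradation or restrain viral replication.

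The targeted RNA, *RAB30-DT*, was at 18.16, 11.51 and 13.91 TPM in control replicates 1, 2 and 3 and at 11.94, 10.85 and 6.5 TPM in knockdown replicates 1, 2 and 3. The groups overlapped, and an exact two-sided permutation test gave p = 0.2, where 0.1 is the smallest p that 3 libraries against 3 can give. The endothelial markers PECAM1, VWF, CDH5 and KDR were at most 0.36 TPM in any library, and only ENG of 10 endothelial markers had a mean of at least 1 TPM. Of 10 hepatocyte markers, 6 were listed at 0 in all libraries, ALB and HNF4A among them. The summed hepatocyte markers were at 19.8 to 25.1 TPM in control and 28.7 to 38.1 TPM in knockdown cells, nearly all of it *SERPINA1*, the 1 of the 10 with a mean of at least 1 TPM, at 18.1 to 24.0 TPM and 28.2 to 37.2 TPM. Of 10 mesenchymal markers, 9 had a mean of at least 1 TPM, and *COL1A2* was at most 0.12 TPM. Their summed level was 6123 to 6546 TPM in control and 6181 to 6726 TPM in knockdown cells. *VIM* reached 3793 to 4784 TPM and was higher in all knockdown libraries than in any control library. *CAV1*, *SPARC*, *THY1* and *PDGFRB* were lower in all knockdown libraries. Of 10 leukocyte markers, 6 were at 0 in all libraries, including the defining *PTPRC*, and their summed level, nearly all of it *CD68*, was 29.7 to 66.9 TPM in control and 107 to 129 TPM in knockdown cells. Sequencing depth cannot be read from TPM and is unknown here.

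No member was differentially expressed after correction for multiple testing. In limma on log2(TPM + 1), 0 of 36 members passed a Benjamini–Hochberg adjusted p under 0.05, where 1.04% of all 14020 genes did. At an unadjusted p under 0.05 there were 5 of 36 (13.9%), which were *IRF1*, *OAS3* and *USP18*, lower in knockdown cells, and *IRF9* and *IFIT3*, higher. The share among all genes was 16.8%. The 3 knockdown values lay above all 3 control values for 5 members (13.9%), *MAVS*, *IRF9*, *STAT2*, *OASL* and *IFIT3*, where 9.89% of all genes did so. They lay below for 3 members (8.33%), *IRF1*, *OAS3* and *USP18*, where the share of all genes was 13.4%. The log2 fold change was above 0 for 21 of 36 members (58.3%), against 46.3% of all genes. Its median was 0.03 over the members and −0.04 over all genes. The plot of log2 fold changes shows the members' order with and without control replicate 3, which stood apart as described next.

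**Figure D1:**
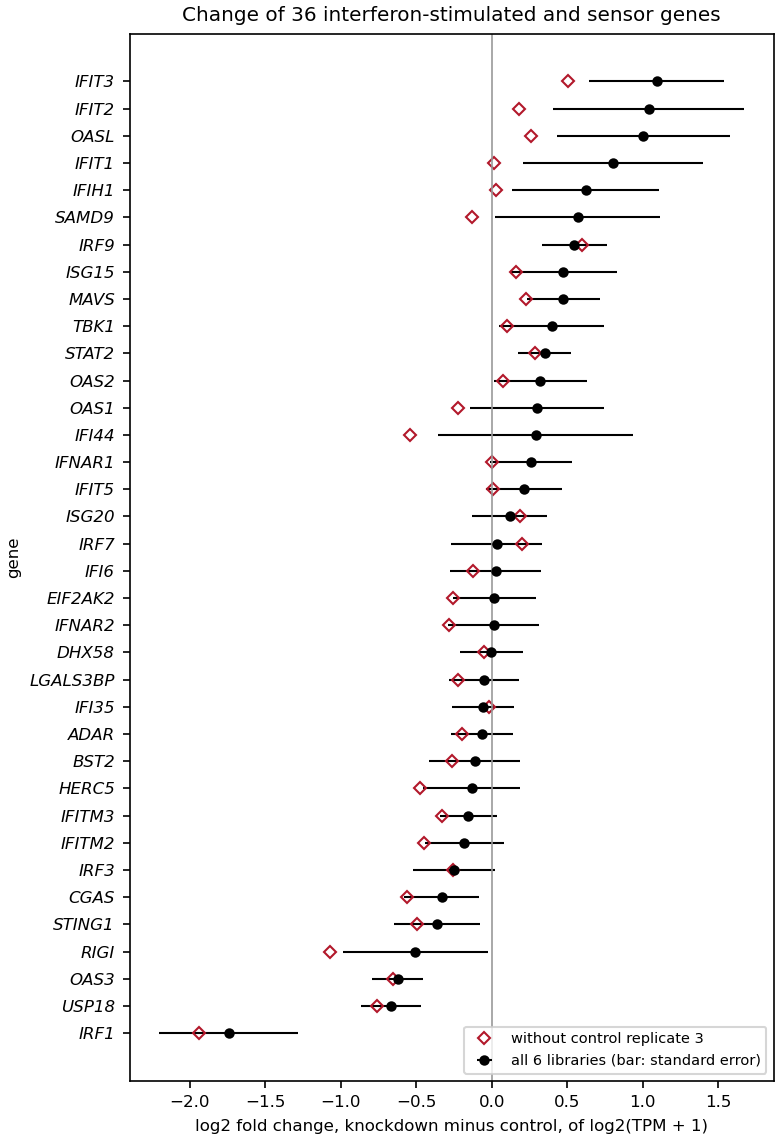
Log2 fold change of log2(TPM + 1), knockdown minus control, on the horizontal axis for the 36 members with a mean of at least 1 TPM. Filled points with bars are the estimate and standard error of limma over all 6 libraries, and open diamonds are the estimates without control replicate 3, which for *IFIT1* is 0.01 in place of 0.80.

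Across the members, 1 control library stood apart from the other 5. Control replicate 3 was the lowest of the 6 libraries for 24 of 36 members (66.7%), where it was the lowest for 32.2% of all genes. For 10 of 36 members (27.8%) it lay at least 1 on the log2(TPM + 1) scale below the mean of control replicates 1 and 2, against 6.29% of all genes. These were *IFIT1*, *IFIT2*, *IFIT3*, *IFI44*, *OASL*, *SAMD9*, *IFIH1*, *RIGI*, *OAS1* and *HERC5*. The rule of 1 log2 unit and the choice of this library were made after the values were seen, and with 3 libraries per group the difference has no test. The median member lay 0.72 below control replicates 1 and 2 on that scale in control replicate 3, where the median of all genes lay 0.14 below.

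The libraries also differed in how their values followed the GC content of the transcripts. Across genes, which are not independent replicates, the Spearman correlation of a library's deviation from the gene mean with GC content was −0.595, 0.292 and 0.483 in control replicates 1, 2 and 3. It was −0.518, 0.0165 and 0.324 in knockdown replicates 1, 2 and 3. Control replicate 3 had the strongest positive correlation, with AT-rich transcripts at relatively low values, and the 10 members named above had GC contents of 36.04% to 51.4%. Once the GC dependence of every library was taken out by loess, control replicate 3 was still the lowest for 25 of 36 members (69.4%), against 26.1% of all genes. On these values 10 of 36 members lay at least 1 log2 unit below control replicates 1 and 2, with *ISG15* in place of *HERC5*, against 2.95% of all genes. With that removal the median member lay 0.58 below them and the median of all genes 0.01 above them. The part of library preparation in the rest of this difference was not tested, and in bulk RNA fewer expressing cells and less RNA per cell cannot be told apart.

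**Figure D2:**
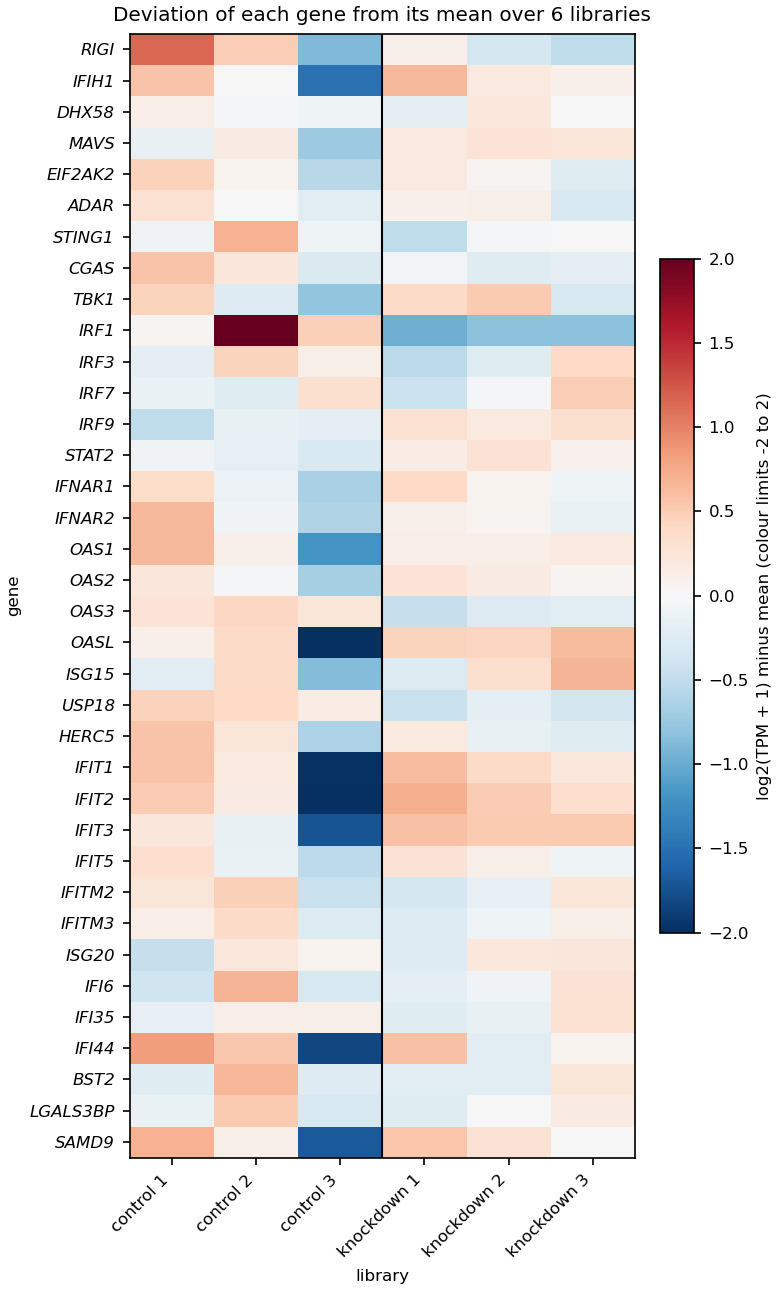
Deviation of log2(TPM + 1) from each gene's mean over the 6 libraries (colour, limits −2 to 2) for 36 members in rows and the libraries in columns, the black line separating control from knockdown. Control replicate 3 holds the lowest value of the row for 24 of the 36 genes.

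**Figure D3:**
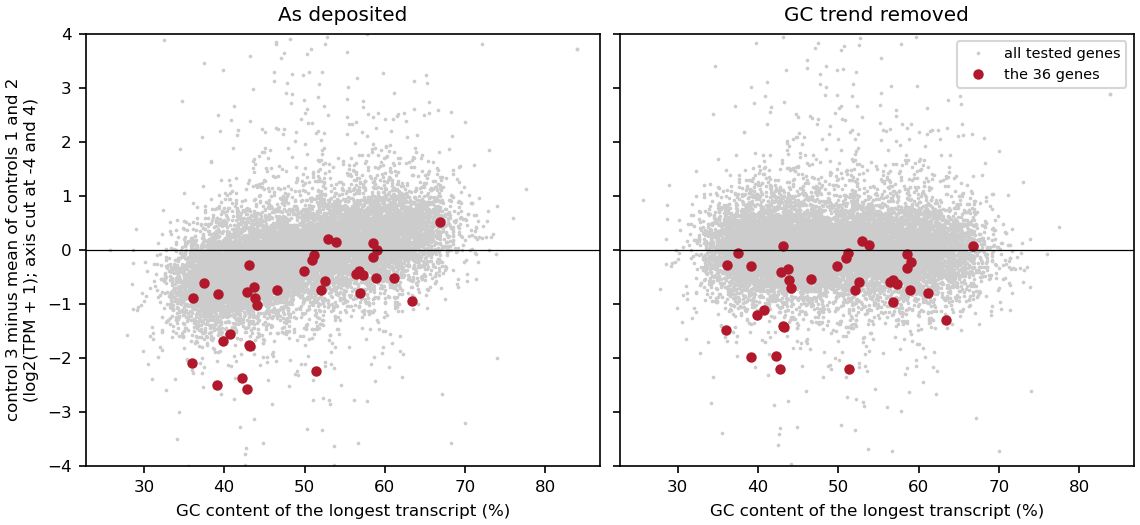
Control replicate 3 minus the mean of control replicates 1 and 2 on the log2(TPM + 1) scale (vertical axis, cut at −4 and 4) against the GC content of the longest transcript in percent, for all tested genes (gray) and the 36 members (red), as deposited and with the GC trend removed. The members' median is −0.72 on the left and −0.58 on the right, where the median of all genes is 0.01.

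The *IFIT* family had the lowest median of the member families in control replicate 3, −2.07 relative to control replicates 1 and 2 on the log2(TPM + 1) scale. Of its products, IFIT1 binds viral RNA that lacks the host's cap methylation and blocks its translation. *IFIT1* (ENSG00000185745.10, plus strand of hg38, chr10:89392546-89406487) was at 12.02, 9.04 and 1.21 TPM in control replicates 1, 2 and 3, and at 12.36, 10.4 and 9.07 TPM in knockdown replicates 1, 2 and 3. *IFIT2* (chr10:89283694-89309271) was at 16.21, 12.59 and 1.56 TPM in control and at 18.77, 16.15 and 14.31 TPM in knockdown cells. For both genes control replicates 1 and 2 lay within or just below the knockdown values, and control replicate 3 lay far below all the others. *IFIT3* (chr10:89327307-89377473), a partner that stabilizes IFIT1, was at 18.71, 14.17 and 4.1 TPM in control and at 24.34, 23.03 and 23.2 TPM in knockdown cells. Its knockdown values lay above all control values. *IFIT5* (chr10:89414568-89421605) was at 19.85, 13.97 and 10.5 TPM in control and at 19.07, 16.86 and 14.55 TPM in knockdown cells, and the groups overlapped.

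The log2 fold changes of the family were 0.80 (standard error 0.593, limma adjusted p = 0.532) for *IFIT1*, 1.04 (0.635, adjusted p = 0.450) for *IFIT2*, 1.09 (0.450, adjusted p = 0.275) for *IFIT3* and 0.21 (0.250, adjusted p = 0.708) for *IFIT5*. Without control replicate 3 these log2 fold changes were 0.01, 0.18, 0.50 and 0.01. Over the alternative settings the adjusted p of *IFIT3* from limma ran from 0.0387, with arrayWeights, to 0.544, and without control replicate 3 it was 0.219. *IFIT1*, *IFIT2* and *IFIT3* lie within the span of *LIPA*, a gene of the opposite strand that encodes lysosomal acid lipase, and *IFIT2* overlaps the lncRNA ENSG00000232110. *LIPA* was at 105.12, 80.24 and 38.66 TPM in control and at 190.22, 151.7 and 148.49 TPM in knockdown cells. It was also lowest in control replicate 3 (log2 fold change 1.22, limma adjusted p = 0.129). The library kit is not stated to keep strand, so reads of *LIPA* and of the *IFIT* genes in shared positions cannot be told apart here.

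The promoters of many of the members carry a shared sequence, which is shown because interferon acts on many interferon-stimulated genes through this element. The core of the interferon-stimulated response element was searched on both strands as GAAA, then 2 bases of any kind, then GAAA, which reads TTTC, 2 bases, TTTC on the other strand, with overlapping matches kept. The RefSeq table of promoters, 250 bases before to 50 bases after the start, had entries for 32 of the 44 members, and 20 of the 32 (62.5%) held the core, against 1195 of 27305 genes (4.38%). Many members were listed because they are interferon-stimulated, so this share describes the choice of genes and is not a result of these libraries. Of the 10 members low in control replicate 3, *IFIT1*, *IFIT3*, *IFIH1*, *IFI44*, *SAMD9* and *HERC5* held it, *RIGI* and *OAS1* did not in this window, and *OASL* and *IFIT2* had no entry. That was 6 of 8 with an entry, and among the other tested members 9 of 17 held it, *OAS3*, *ISG15* and *IFIT5* among them, and the difference was not tested. The stretches below are from GRCh38.p14, 5′ to 3′ on the strand of the gene and upstream of its RefSeq start, with the matched letters in capitals. A match is a description of the letters and not a bound site.
*IFIT1*, plus strand, chr10:89392492-89392611: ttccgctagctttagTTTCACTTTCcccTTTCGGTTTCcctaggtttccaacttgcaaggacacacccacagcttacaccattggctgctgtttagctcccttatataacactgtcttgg
*IFIT3*, plus strand, chr10:89327826-89327945: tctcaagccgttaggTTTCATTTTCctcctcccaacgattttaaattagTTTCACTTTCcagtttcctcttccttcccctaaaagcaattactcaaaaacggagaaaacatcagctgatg
*IFIT5*, plus strand, chr10:89414508-89414567: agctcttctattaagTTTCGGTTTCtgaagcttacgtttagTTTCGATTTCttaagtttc
*IFIH1*, minus strand, chr2:162318685-162318858: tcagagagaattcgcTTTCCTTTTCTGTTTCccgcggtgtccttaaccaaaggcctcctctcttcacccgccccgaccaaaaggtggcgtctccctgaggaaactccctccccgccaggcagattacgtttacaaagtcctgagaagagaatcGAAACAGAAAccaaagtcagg
*SAMD9*, minus strand, chr7:93118011-93118130: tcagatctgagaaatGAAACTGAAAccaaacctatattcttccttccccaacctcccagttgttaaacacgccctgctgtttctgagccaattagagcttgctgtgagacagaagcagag
*OAS3*, plus strand, chr12:112938316-112938473: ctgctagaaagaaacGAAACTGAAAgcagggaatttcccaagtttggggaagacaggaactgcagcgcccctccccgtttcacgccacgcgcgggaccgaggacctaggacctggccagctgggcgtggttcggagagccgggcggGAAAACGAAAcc
*ISG15*, plus strand, chr1:1013369-1013488: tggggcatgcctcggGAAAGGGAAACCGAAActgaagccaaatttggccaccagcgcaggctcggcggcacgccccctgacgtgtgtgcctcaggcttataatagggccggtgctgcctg

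Among the sensors, *RIGI* and *IFIH1* were both lowest in control replicate 3, and neither separated the groups. *RIGI* (minus strand, chr9:32455302-32526208), the sensor of short double-stranded RNA with a 5′ triphosphate, was at 11.12, 6.7 and 1.98 TPM in control and at 4.88, 3.29 and 2.83 TPM in knockdown cells. Control replicates 1 and 2 lay above all 3 knockdown libraries and control replicate 3 below them. The log2 fold change was −0.51 (standard error 0.481, limma adjusted p = 0.627), and −1.07 without control replicate 3 (limma adjusted p = 0.133). *IFIH1* (minus strand, chr2:162267074-162318684), the sensor of long double-stranded RNA, was at 8.75, 5.52 and 1.32 TPM in control and at 9.25, 6.47 and 6.02 TPM in knockdown cells. Here control replicates 1 and 2 fell within or just below the knockdown range, and the log2 fold change of 0.62 (standard error 0.487) became 0.03 without control replicate 3. *DHX58*, which encodes the related helicase LGP2, was even across the libraries, at 6.41, 5.6 and 5.34 TPM in control and at 4.88, 6.79 and 5.73 TPM in knockdown cells.

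*MAVS*, the mitochondrial adaptor of both sensors, was at 22.1, 27.68 and 14.35 TPM in control and at 28.19, 29.76 and 29.28 TPM in knockdown cells. The groups did not overlap, yet control replicate 2 lay within 1 TPM of the lowest knockdown library, and the log2 fold change was 0.47 (standard error 0.243, limma adjusted p = 0.370). *EIF2AK2*, the RNA-activated kinase PKR that stops translation, was at 32.24, 24.42 and 15.58 TPM in control and at 26.86, 24.3 and 19.53 TPM in knockdown cells. *ADAR*, which edits double-stranded RNA and so keeps the sensors from reading it, was at 96.2, 78.17 and 66.06 TPM in control and at 83.55, 83.92 and 61.68 TPM in knockdown cells. Both genes overlapped between the groups, with log2 fold changes of 0.02 and −0.07 that changed sign under other settings. *TLR3*, the endosomal sensor, was below the filter, at 0.97, 0.69 and 0.19 TPM in control and at 0.6, 0.31 and 0.66 TPM in knockdown cells.

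The genes of DNA sensing overlapped between the groups. *CGAS*, the cytosolic DNA sensor, was at 8.4 to 16.1 TPM in control and 8.73 to 10.11 TPM in knockdown cells. *STING1*, its downstream adaptor, was at 5.56, 10.12 and 5.49 TPM in control and at 3.81, 5.77 and 5.81 TPM in knockdown cells, with a log2 fold change of −0.36 (standard error 0.285, limma adjusted p = 0.554). *TBK1*, the kinase shared by these routes, ranged from 15.48 to 37.98 TPM in control and from 21.79 to 40.14 TPM in knockdown cells, and the groups overlapped.

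The transcription factors held the lowest log2 fold change of all 36 members. *IRF1* (ENSG00000125347.15, minus strand, chr5:132440440-132508719), a factor induced by interferon-γ that also supports basal antiviral expression, was at 20.57, 87.01 and 28.05 TPM in control and at 9.62, 10.73 and 10.79 TPM in knockdown cells. All 3 knockdown libraries lay close together and below every control library, whereas the control group was spread by replicate 2. The means were 45.2 ± 36.4 TPM (SD, n = 3) in control and 10.4 ± 0.659 TPM (SD, n = 3) in knockdown cells, and the log2 fold change was −1.74 (standard error 0.463, limma adjusted p = 0.121). An exact two-sided permutation test of the log2 values gave p = 0.1, the smallest that this design allows. The adjusted p from limma was 0.0341 without control replicate 1 (log2 fold change −2.15) and 0.174 without control replicate 2 (−1.14), and over all alternatives it ran from 0.00164 to 0.369.

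Its promoter held no match to the response element core in the 300-base window. A second search, added after the values were seen, was for TTC, 3 bases of any kind and GAA, the core that STAT dimers recognize. It found a match in 10 of 32 members (31.2%), *IRF1* among them, against 9.38% of all genes. Of the tested members with an entry, 5 of 25 (20%) held it. The stretch is shown with that match in capitals, from GRCh38.p14, 5′ to 3′ on the strand of the gene.
*IRF1*, minus strand, chr5:132490793-132490912: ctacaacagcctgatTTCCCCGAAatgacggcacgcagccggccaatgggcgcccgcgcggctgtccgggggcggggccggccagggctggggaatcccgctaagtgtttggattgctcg

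*IRF9* (chr14:24161234-24168043), the DNA-binding subunit of the interferon-induced complex, was at 3.09, 4.23 and 4.13 TPM in control and at 6.14, 5.63 and 6.22 TPM in knockdown cells. The groups did not overlap, and the log2 fold change was 0.55 (standard error 0.214, limma adjusted p = 0.253). *STAT2* (minus strand, chr12:56341597-56360203), its partner, was at 15.05, 14.04 and 12.57 TPM in control and at 17.5, 19.51 and 16.89 TPM in knockdown cells, again without overlap. Its log2 fold change was 0.35 (standard error 0.176, limma adjusted p = 0.359), and over the alternatives the adjusted p ran from 0.0449, with arrayWeights, to 0.723. These 2 genes kept log2 fold changes of 0.60 and 0.29 without control replicate 3. Among the other factors, *IRF3* was at 61.22, 94.57 and 75.59 TPM in control and at 47.74, 58.47 and 91.98 TPM in knockdown cells. *IRF3* shares positions with *BCL2L12* of the opposite strand, which had a mean of 71.7 TPM. *IRF9* shares positions with ENSG00000259529, a protein-coding entry of the same strand, with means of 1.43 TPM in control and 0.787 TPM in knockdown cells. How reads were divided between *IRF9* and that entry was not tested. *IRF7*, which amplifies interferon production, stayed between 2.91 and 6.4 TPM in all 6 libraries.

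The receptor chains were detected and the ligand was scarce. *IFNAR1* was at 48.2, 34.08 and 23.32 TPM in control and at 49.19, 38.9 and 34.87 TPM in knockdown cells (log2 fold change 0.26, limma adjusted p = 0.670). *IFNAR2* ranged from 14.66 to 36.26 TPM in control and from 20.63 to 24.29 TPM in knockdown cells. In both chains control replicate 3 was the lowest library. *IFNB1*, which encodes interferon-β, was at 1.4, 0.59 and 0 TPM in control and at 0.64, 0.69 and 0.88 TPM in knockdown cells, below the filter. Control replicate 3 was the one library in which it was listed at 0.

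**Figure D4:**
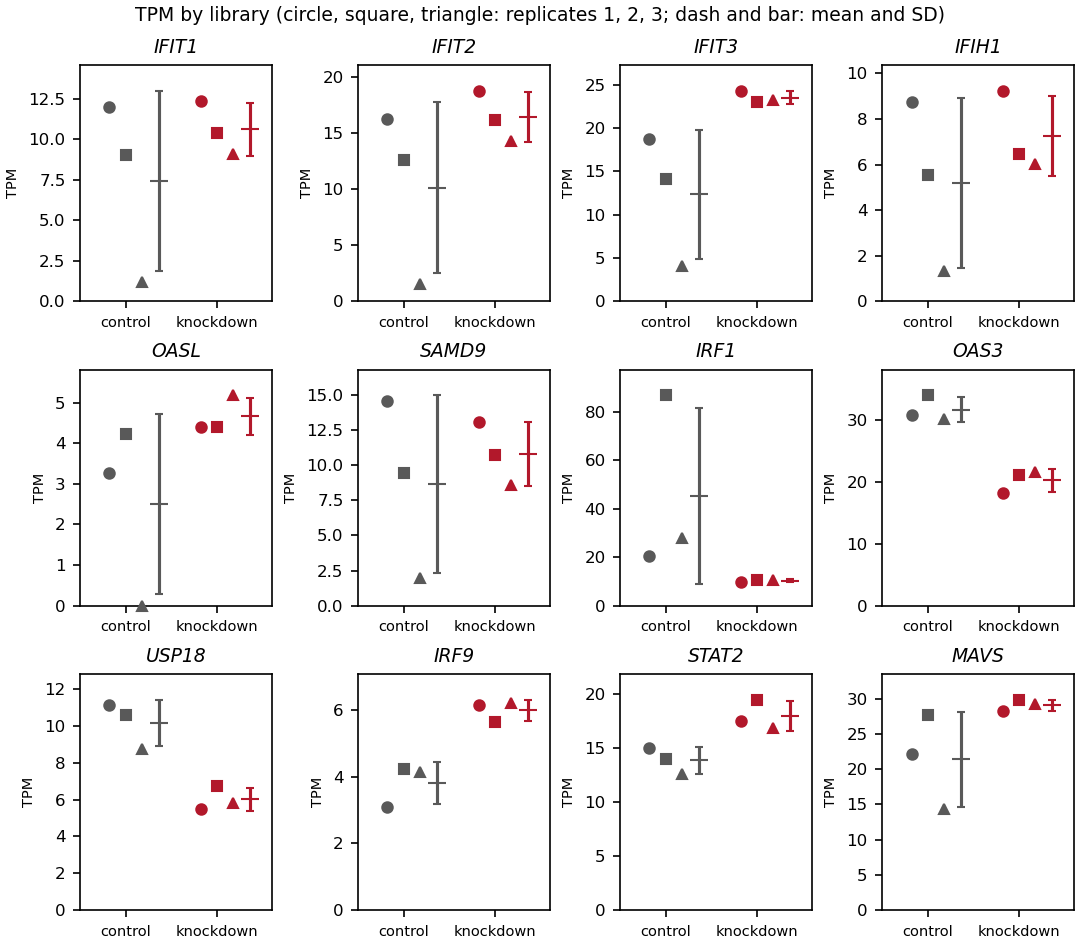
TPM of 12 members in the 3 control (gray) and 3 knockdown (red) libraries on linear axes from 0, circles, squares and triangles standing for replicates 1, 2 and 3, with the mean and SD beside them. Control replicate 3 (triangle) lies lowest for the *IFIT* genes, *IFIH1*, *OASL* and *SAMD9*, whereas *OAS3* is at 30.22 to 34.04 TPM in control and 18.13 to 21.54 TPM in knockdown cells.

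The *OAS* enzymes, which make the 2′-5′-linked oligoadenylates that activate RNase L, did not share a direction. *OAS3* (ENSG00000111331.14, plus strand, chr12:112938051-112976460), the member that binds long double-stranded RNA, was at 30.79, 34.04 and 30.22 TPM in control and at 18.13, 21.09 and 21.54 TPM in knockdown cells. The groups were well separated and control replicate 3 was close to the other controls. The means were 31.7 ± 2.06 TPM (SD, n = 3) and 20.3 ± 1.85 TPM (SD, n = 3), with a log2 fold change of −0.62 (standard error 0.168, limma adjusted p = 0.124) and an exact permutation p of 0.1. With the GC trend removed the limma adjusted p was 0.0286, and over the alternatives it ran from 0.00653 to 0.410. The adjacent *OAS1* (chr12:112905856-112933219) was at 4.39, 2.66 and 0.5 TPM in control and at 2.75, 2.74 and 2.92 TPM in knockdown cells. *OAS2* (chr12:112978395-113011723) was at 0.73 to 2.19 TPM in control and 1.83 to 2.3 TPM in knockdown cells. Neither neighbor separated the groups, and both were lowest in control replicate 3. *OASL*, an enzymatically inactive relative that supports RIG-I, was at 3.28, 4.23 and 0 TPM in control and at 4.41, 4.39 and 5.19 TPM in knockdown cells. For *OASL* the log2 fold change of 1.00 (standard error 0.572, limma adjusted p = 0.419) was 0.26 without control replicate 3, where it was listed at 0.

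*USP18* lay on the same side as *OAS3*. It encodes the protease that removes ISG15 from proteins and that restrains signaling at the interferon receptor. *USP18* (ENSG00000184979.11, plus strand, chr22:18150118-18177397) was at 11.16, 10.6 and 8.74 TPM in control and at 5.51, 6.72 and 5.81 TPM in knockdown cells. All knockdown values lay below all control values, with means of 10.2 ± 1.27 TPM (SD, n = 3) and 6.01 ± 0.63 TPM (SD, n = 3). The log2 fold change was −0.67 (standard error 0.198, limma adjusted p = 0.152), the exact permutation p was 0.1, and over the alternatives the adjusted p ran from 0.0151 to 0.407. *ISG15*, the ubiquitin-like modifier itself, was at 30.24, 46.71 and 19.01 TPM in control and at 29.13, 44.45 and 57.25 TPM in knockdown cells, with overlap. *HERC5*, the ligase that attaches it, was at 11.17, 8.62 and 4.33 TPM in control and at 8.31, 6.33 and 5.93 TPM in knockdown cells, also with overlap.

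Settings that use the libraries unequally or adjust them called some of these members. With limma's arrayWeights, which gave control replicate 2 and knockdown replicate 2 most of the weight, 5 of 36 members passed an adjusted p under 0.05, *OAS3*, *USP18* and *IRF1* lower and *IFIT3* and *STAT2* higher. In that fit 23.0% of all genes passed. With the GC trend removed 2 of 36 passed, *OAS3* and *USP18*, both lower, against 8.01% of all genes. In both settings the share of members was below the share of all genes.

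Among the most abundant members were several membrane and secreted proteins, and their groups overlapped. *IFITM3*, which blocks fusion of viruses in endosomes, was at 419.06, 498.81 and 316.77 TPM in control and at 321.11, 360.1 and 413.94 TPM in knockdown cells. *IFITM2* was at 242.69, 285.61 and 150.43 TPM in control and at 160.22, 181.91 and 243.75 TPM in knockdown cells. The 2 genes are close paralogs, and how their shared reads were divided is uncertain. *LGALS3BP*, a secreted glycoprotein, was at 193.53, 306.69 and 170.25 TPM in control and at 179.11, 213.8 and 237.28 TPM in knockdown cells. *IFI6*, a mitochondrial and endoplasmic reticulum protein with antiviral activity, was at 23.94, 51.65 and 25.49 TPM in control and at 28.12, 30.35 and 39.08 TPM in knockdown cells. In all 4 genes control replicate 2 was the highest library. Their log2 fold changes lay between −0.18 and 0.02 and each changed sign under at least 1 other setting.

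Of the remaining tested members, *SAMD9* and *IFI44* followed the *IFIT* pattern. *SAMD9*, a restriction factor of poxviruses, was at 14.56, 9.42 and 1.99 TPM in control and at 13.07, 10.69 and 8.59 TPM in knockdown cells. *IFI44* was at 7.77, 6.18 and 0.4 TPM in control and at 6.38, 3.23 and 4.16 TPM in knockdown cells. Their log2 fold changes of 0.57 and 0.29 were −0.13 and −0.54 without control replicate 3, so the direction rested on that library. *ISG20*, an exonuclease of RNA, *IFI35* and *BST2*, the tether that holds budding virions, had log2 fold changes of 0.12, −0.06 and −0.11 and overlapping groups. The 8 members below the filter were *TLR3*, *IFNB1*, *MX1*, *MX2*, *IFITM1*, *IFI27*, *IFI44L* and *XAF1*. The highest value of any of them was 1.4 TPM, and *MX1*, which encodes a GTPase often used as a readout of interferon, was at 0.51 to 1.18 TPM in all libraries. *MX2*, *IFI44L* and *XAF1* were listed at 0 in every control library and in knockdown replicates 2 and 3. In knockdown replicate 1 they were at 0.05, 0.01 and 0.24 TPM.

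Without control replicate 3 the members stayed near the shares of all genes. The median log2 fold change was then −0.13 over the members and −0.09 over all genes. The knockdown values lay below both remaining controls for 7 members, *RIGI*, *CGAS*, *IRF1*, *OAS3*, *USP18*, *HERC5* and *IFITM3* (19.4%, against 22.5% of all genes), and above them for 5 (13.9%, against 13.1%). The 5 were *MAVS*, *IRF9*, *STAT2*, *OASL* and *IFIT3*. They had no overlap with all libraries, so leaving out a control could not remove them, and no member was added.

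Other genes of the pathway were read from 6 lists of 124 genes, of which 95 reached a mean of 1 TPM. By the limma adjusted p, 1 of the 95 was called (1.05%, against 1.04% of all genes), and 15 had an unadjusted p under 0.05 (15.8%, against 16.8%), so both shares were close to those of all genes. The called gene, *IL1B*, is an inflammatory cytokine from the list of the NF-κB arm (1 of 17 tested, higher). It was at 8.73, 5.22 and 4.43 TPM in control and at 20.56, 24.94 and 21.46 TPM in knockdown cells, so each knockdown library lay above 20 TPM and no control library above 9. The log2 fold change was 1.75 (standard error 0.252, limma adjusted p = 0.0285), and it was 0.0362 without control replicate 3. The adjusted p of *IL1B* from limma was 0.141 without control replicate 2 and 0.104, 0.153 and 0.133 without knockdown replicates 1, 2 and 3.

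None of the other 5 lists held a called gene, of 7 tested in interferon signaling, 15 in sensing, 27 among other interferon-stimulated genes, 16 in antigen presentation and 13 negative regulators. At an unadjusted p under 0.05 from limma these 5 lists held 2 genes that were higher and 8 that were lower in knockdown cells. Over all the lists the share was 15.8% in either direction, against 16.8% of all genes. The share of all genes in each direction is not given here. The gene with the largest log2 fold change in each was named. *PSMB9*, a subunit of the immunoproteasome, was at 29.31, 48.27 and 24.95 TPM in control and at 6.49, 10.68 and 17.31 TPM in knockdown cells (log2 fold change −1.53, limma adjusted p = 0.0949). Its groups did not overlap. *SOCS3*, an inhibitor of JAK kinases, was at 19.44, 28.89 and 64.88 TPM in control and at 16.07, 16.27 and 16.84 TPM in knockdown cells (log2 fold change −0.98, limma adjusted p = 0.253). *SOCS3* was highest in control replicate 3, where the *IFIT* genes were lowest.

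*IFI16*, a sensor of DNA in the nucleus, was at 11.72, 10.22 and 2.87 TPM in control and at 18.15, 13.78 and 16.7 TPM in knockdown cells (log2 fold change 1.06, and 0.52 without control replicate 3). *CCL5*, a chemokine induced by both NF-κB and interferon, was at 20.61, 24.82 and 0.2 TPM in control and at 13.41, 17.25 and 12.63 TPM in knockdown cells. The log2 fold change of *CCL5*, 0.81, was −0.63 without control replicate 3. *IL10RB*, a shared chain of the receptor for type III interferon, was at 27.27, 27.16 and 13.38 TPM in control and at 30.54, 26.17 and 26.44 TPM in knockdown cells. All 3 genes were lowest in control replicate 3, as the *IFIT* genes were. Over the pathway lists that library was lowest for 35 of 95 tested genes (36.8%), against 32.2% of all genes. By list the share ran from 7.69% of the negative regulators to 60% of the sensing genes. The kinases of the receptor did not separate the groups, with *JAK1* at 54.85 to 86.89 TPM in control and 57.76 to 77.87 TPM in knockdown cells, and *TYK2* at 21.93 to 37.73 TPM and 22.18 to 29.97 TPM.

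**Figure D5:**
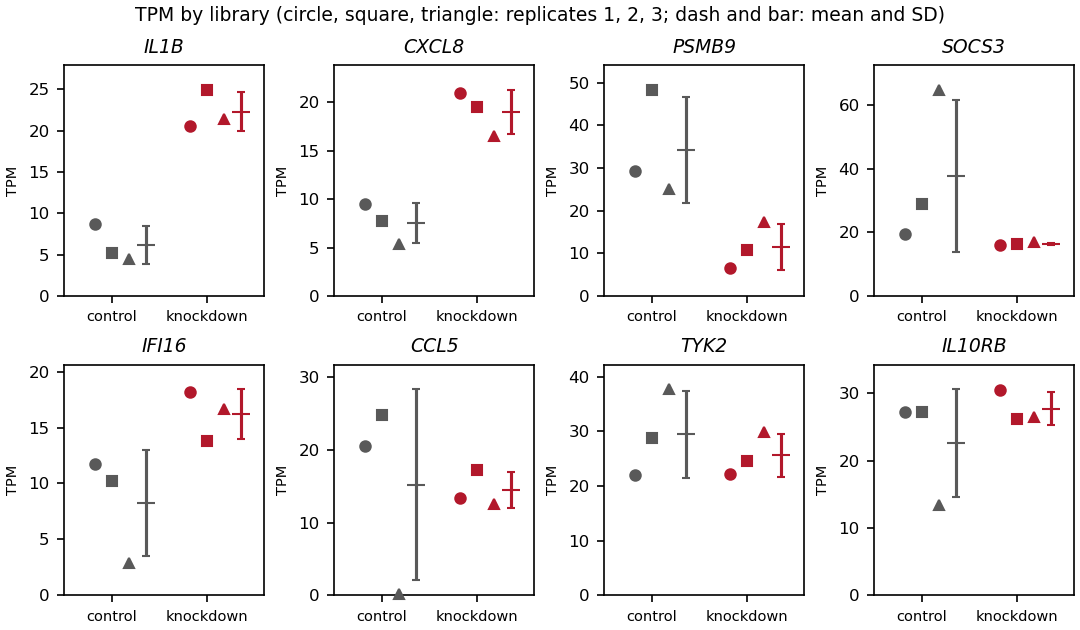
TPM of 8 genes of the pathway lists in control (gray) and knockdown (red) libraries on linear axes from 0, with circles, squares and triangles for replicates 1, 2 and 3 and the mean and SD beside them. *IL1B* lies above 20 TPM in all knockdown libraries, and *CCL5* and *IFI16* are lowest in control replicate 3, at 0.2 and 2.87 TPM.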

How the data were processed

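The 6 RNA–Seq libraries covered 3 control and 3 knockdown samples. The authors deposited TPM values per gene, which are corrected for transcript length and share 1 total across libraries. The labels name fastp and HISAT2 2.0.5 on hg38, whereas the study's methods name STAR and RSEM, so the aligner is uncertain. Gene identifiers matched GENCODE Release 44, which gave names, positions and GC content. Depth is not recoverable from these values, and precision rests on the 3 libraries per group.

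limma 3.58.1 under R 4.3.3 (lmFit, eBayes with trend, 2-sided) was fitted to log2(TPM + 1) of the 14020 genes whose mean reached 1 TPM, and p-values were adjusted by Benjamini–Hochberg over all of these. A fold change on this scale understates the change of low genes. Values in every library were given for members without group overlap, the 5 highest and 5 lowest log2 fold changes, the 8 most abundant members and the RNA sensors. Of the pathway lists, the called genes, the largest log2 fold change of each list, *JAK1* and *TYK2* were named, the last pair by range. *SAMD9*, *IFI44*, *OAS1* and *HERC5*, and the genes of the other observations, were named after their values were seen. One further gene of this rule is not reported here. The members and lists were chosen with earlier results of these data known. GC trends were removed by loess (span 0.3) of each library's deviation. The fit was tested on simulated data. Promoters came from RefSeq (GRCh38.p14).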

Additional observations from a re-analysis of the deposited data

How the results depend on the processing

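Of the alternatives, both other pseudocounts (0.1 and 5), both other filters (none, or a mean of 5 TPM), quantile normalization, median-of-ratios scaling and TPM without mitochondrial genes called 0 members. arrayWeights called 2 members higher and 3 lower, and removal of the GC trend 2 lower. With 1 library left out, 0 members were called higher and 0 to 1 lower (*IRF1*, without control replicate 1). Members with no overlap, higher in knockdown cells, numbered 5, and 3 at a mean of at least 5 TPM, where fewer genes were tested, 9 with the GC trend removed and 5 to 12 with 1 library left out, 12 being without control replicate 1. Those lower numbered 3, and 3 to 7 with 1 library left out. Leaving out a library cannot make separate groups overlap, so such counts can rise for any set of genes. The shares of all genes were 9.89% higher and 13.4% lower with all libraries. Without control replicate 3 they were 13.1% and 22.5%. For the other settings these shares are not given here, so those counts are not a result about the members. The pathway gene called higher, 1, became 0 without a filter, 2 at a mean of at least 5 TPM, with median-of-ratios scaling, quantile normalization, arrayWeights or the GC trend removed, and 0 to 2 with 1 library left out. The pathway genes called lower, 0, became 16 with arrayWeights, 2 with the GC trend removed and 0 to 3 with 1 library left out. In either direction 18 of 95 pathway genes passed with arrayWeights (18.9%, against 23.0% of all genes). With the GC trend removed 4 passed (4.21%, against 8.01%). Leaving out control replicate 2 or any knockdown library cut the calls over all genes from 146 to between 12 and 18, and leaving out control replicate 1 gave 489. The causes were not tested. The log2 fold change of *RAB30-DT* kept its sign throughout, from −0.70 to −0.24, and the members' median stayed between −0.13 and 0.20.

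Libraries with the same replicate number in the labels deviated alike for replicates 1 and 3 but not for replicate 2. The correlations of same-numbered libraries' deviations were 0.41, 0.036 and 0.279 for replicates 1, 2 and 3. They were taken without removal of the GC trend. The correlation with GC content was −0.595 in control and −0.518 in knockdown replicate 1, and 0.483 and 0.324 in replicate 3. In replicate 2 it was 0.292 and 0.0165. The part of the GC trend in this likeness was not tested. Control replicates 1 and 3 each correlated best with the knockdown library of their own number. Control replicate 2 correlated better with knockdown replicate 3 (0.111) than with its own number. With a replicate block the called members were 0 higher and 2 lower, *IRF1* and *OAS3*, among 861 of 14020 genes, and the pathway genes 2 higher and 5 lower. With a replicate block and the GC trend removed they were 1 lower member, *OAS3*, and pathway genes 3 higher and 4 lower, among 1026 of 14020 genes. Added to the GC removal, the block ended the call of *USP18* (limma adjusted p 0.0471 without and 0.0526 with it).

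Small log2 fold changes changed sign under some settings. With the GC trend removed (with or without a replicate block) they were 0.087 for *DHX58*, −0.0057 for *EIF2AK2*, 0.031 for *IFI35*, 0.063 for *LGALS3BP* and 0.00036 for *JAK1*. With arrayWeights they were 0.14 for *DHX58*, −0.017 for *EIF2AK2*, 0.027 for *ADAR*, −0.52 for *IFI6*, −0.44 for *IFI44*, −0.20 for *CCL5* and 0.0073 for *JAK1*. With median-of-ratios scaling they were 0.030 for *DHX58* and 0.022 for *JAK1*. With quantile normalization they were 0.084 for *ADAR*, −0.025 for *IRF7*, 0.022 for *IFITM3*, 0.021 for *IFI35*, 0.15 for *LGALS3BP* and 0.12 for *JAK1*. With a pseudocount of 5 TPM they were −0.0012 for *IFNAR2*. With TPM rescaled without mitochondrially encoded genes they were 0.00016 for *DHX58*. With 1 library left out the log2 fold changes that changed sign ran from −0.11 to 0.097 for *DHX58*, −0.25 to 0.25 for *EIF2AK2*, −0.19 to 0.079 for *ADAR*, −0.21 to 0.25 for *IRF7*, −0.28 to 0.34 for *IFNAR2*, −0.22 to 0.70 for *OAS1*, −0.47 to 0.12 for *HERC5*, −0.45 to 0.0086 for *IFITM2*, −0.084 to 0.28 for *ISG20*, −0.17 to 0.37 for *IFI6*, −0.23 to 0.047 for *IFI35*, −0.54 to 0.78 for *IFI44*, −0.27 to 0.19 for *BST2*, −0.22 to 0.20 for *LGALS3BP*, −0.13 to 1.06 for *SAMD9*, −0.63 to 1.59 for *CCL5*, −0.18 to 0.15 for *JAK1* and −0.36 to 0.016 for *TYK2*.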

Other observations

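The following genes of the pathway lists were named after their values were seen. In the list of negative regulators, 5 of 13 tested genes had an unadjusted p under 0.05 in limma, all lower in knockdown cells (38.5%, against 16.8% of all genes in either direction), and none passed the adjusted p. *RNASEH2B*, a subunit of the enzyme that removes ribonucleotides from DNA, was at 67.11, 50.02 and 32.16 TPM in control and at 34.12, 27.24 and 19.95 TPM in knockdown cells, and the groups overlapped in 1 library. *RNASEH2A*, the catalytic subunit, was at 69.71, 98.42 and 94.16 TPM in control and at 49.95, 61.04 and 59.43 TPM in knockdown cells, without overlap. The limma adjusted p was 0.226 for *RNASEH2B* and 0.166 for *RNASEH2A*, and 0.0225 and 0.0249 with the GC trend removed. Over the alternatives it ran from 0.0115 to 0.501 and from 0.00754 to 0.430. *TRIM28*, a co-repressor that silences endogenous retroviruses, was at 690.55, 811.97 and 853.76 TPM in control and at 515.07, 567.94 and 571.88 TPM in knockdown cells.

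*CXCL8*, the neutrophil chemokine interleukin-8, was next to *IL1B* in the NF-κB list, at 9.49, 7.7 and 5.39 TPM in control and at 21, 19.48 and 16.5 TPM in knockdown cells. This was a log2 fold change of 1.25 (standard error 0.234, limma adjusted p = 0.0556, from 0.00139 to 0.252 over the alternatives). *TRIM25*, the ubiquitin ligase that supports RIG-I signaling, was at 45.11, 44.3 and 32.03 TPM in control and at 27.36, 30.07 and 23.33 TPM in knockdown cells (limma adjusted p = 0.218). *HLA-B*, a class I antigen-presenting molecule whose reads are shared with its paralogs, was at 46.49, 57.33 and 42.72 TPM in control and at 58.74, 68.74 and 74.8 TPM in knockdown cells (limma adjusted p = 0.255).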
